A study of Mus musculus with 2 samples.

Results

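The genes described here encode the proteins of the mitochondrial ribosome. They were chosen by symbol, as protein-coding genes named Mrpl or Mrps followed by a number, a rule that uses no measured value. The rule found 78 genes, 49 with an Mrpl symbol and 29 with an Mrps symbol, among 55450 genes of the transcript tables, of which 21888 were nuclear and protein-coding. Total RNA was measured in the hearts of male mice of the strain B6CASTF1/J, a first-generation cross of C57BL/6J with CAST/EiJ, at 4 days of age. There were 2 libraries in 1 group, each with an input of 300 ng, added ERCC spike-ins and reduced ribosomal RNA. On the members lay 68907 expected counts in replicate 1 and 76040 in replicate 2, or 0.219% and 0.213% of those on mouse genes. The labels give the animals different numbers and sample records but 1 donor record. If both libraries came from 1 animal, every SD below would measure technical error alone. No treatment, genotype or age was contrasted, so all values are descriptions, and with 2 hearts an exact two-sided sign-flip test cannot give a p under 0.5.

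Mitochondria translate the few proteins encoded in their own DNA, all of them membrane subunits of the respiratory chain and the ATP synthase, on ribosomes of their own. The 2 ribosomal RNAs are copied from mitochondrial DNA inside the organelle, whereas every protein of the ribosome is encoded in the nucleus, made in the cytosol and imported. The large subunit joins amino acids and passes the new chain through an exit tunnel to the inner membrane, and the small subunit holds the mRNA and decodes it. Mitochondrial ribosomes are richer in protein than bacterial ones, and many of their proteins have no bacterial counterpart. Heart muscle depends on oxidative metabolism, and in humans inherited defects of several of these proteins cause cardiomyopathy.

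The gene symbols follow bacterial numbering only in part, and some mislead. Mrps30 and Mrps18a carry small-subunit symbols, but their proteins sit in the large subunit. Mrps36 encodes a protein now assigned to the oxoglutarate dehydrogenase complex of the citric acid cycle. Mrpl58 is a peptidyl-tRNA hydrolase that became a fixed part of the large subunit. Conversely, Dap3, Ptcd3, Aurkaip1, Chchd1 and Gadd45gip1 encode ribosomal proteins without an Mrp symbol and are given separately.

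Promoter sequences of 69 of the 78 genes were found in a RefSeq table for build GRCm38.p6, each running from 250 bases before to 50 bases after a transcription start. The stretches below belong to the 4 genes with the highest level among those whose promoter held CCGGAAG, the core recognised by ETS-family factors such as GABP. They are shown because this short word and the core of NRF1, a regulator of nuclear genes for mitochondria, recur in this set. Each reads 5′ to 3′ along the gene's strand, from 170 bases before the start to 30 bases after it, and capitals mark matches to CCGGAAG or to the NRF1 core GCATGCGC on either strand.
Mrpl33 (chr5:31613781-31613980, plus strand): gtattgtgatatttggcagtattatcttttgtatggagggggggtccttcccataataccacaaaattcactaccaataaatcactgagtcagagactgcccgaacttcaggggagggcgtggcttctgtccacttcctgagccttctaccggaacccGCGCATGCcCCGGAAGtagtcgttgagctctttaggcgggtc
Mrpl51 (chr6:125192030-125192229, plus strand): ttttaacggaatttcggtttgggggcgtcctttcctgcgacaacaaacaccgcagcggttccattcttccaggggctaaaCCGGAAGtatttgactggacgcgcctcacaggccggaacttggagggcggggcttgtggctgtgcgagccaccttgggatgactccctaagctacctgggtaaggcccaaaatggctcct
Mrps21 (chr3:95871485-95871684, minus strand): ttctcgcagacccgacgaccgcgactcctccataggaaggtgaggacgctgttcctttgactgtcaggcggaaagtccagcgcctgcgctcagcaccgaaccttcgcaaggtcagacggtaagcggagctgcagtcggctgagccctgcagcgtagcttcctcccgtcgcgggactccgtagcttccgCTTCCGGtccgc
Mrps23 (chr11:88204218-88204417, plus strand): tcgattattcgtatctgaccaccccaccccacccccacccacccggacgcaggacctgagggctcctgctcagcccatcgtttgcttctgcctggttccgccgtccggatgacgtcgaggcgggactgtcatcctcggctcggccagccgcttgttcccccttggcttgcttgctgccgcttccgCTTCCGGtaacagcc
In Mrpl33 the 2 matches stood 1 base apart at the start site, and in Mrps21 and Mrps23 the match lay on the other strand, just after the start.

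All 78 genes were expressed in both hearts, meaning 1 TPM or more in each (an abundance scaled to the library and divided by transcript length), against 54.1% of all nuclear protein-coding genes. Every gene of the complex I, cytosolic ribosomal protein and ribosome assembly lists given below was expressed too, so this was not particular to the set. Of the 78, 77 reached 10 TPM in both hearts. The median level over the 78 genes was 33.9 TPM, with quartiles of 21.8 and 46.7 TPM, against a median of 12.2 TPM over the 11837 expressed nuclear protein-coding genes. Together they took 0.335% of the TPM of all mouse genes in replicate 1 and 0.312% in replicate 2, a mean of 0.324% ± 0.016 (SD, n = 2). Levels were close to each other: 60 genes lay between 10 and 50 TPM, 11 between 50 and 100, and 6 at 100 or more. The SD of log2 TPM was 0.95 over the 78 genes, against 1.78 over all expressed nuclear protein-coding genes. Levels of the 2 hearts ranked the members almost alike, with a Spearman rho of 0.98 across genes. That rho is a description, since genes are not independent replicates.

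**Figure D1:**
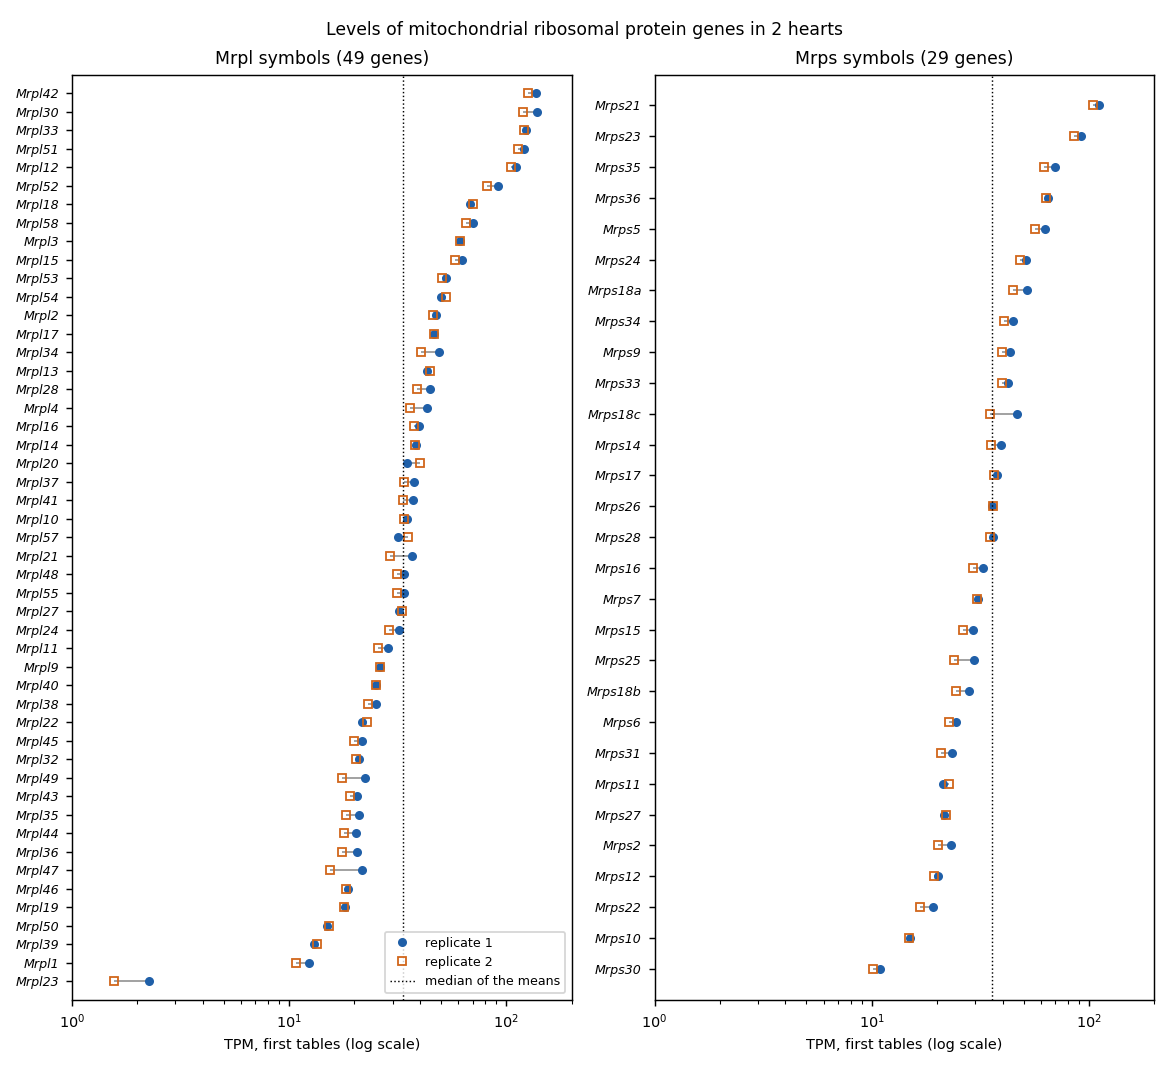
TPM of each of the 78 genes on a log axis, with 49 Mrpl symbols on the left and 29 Mrps symbols on the right, 1 filled circle for replicate 1 and 1 open square for replicate 2. Most genes sit between 10 and 50 TPM with both hearts close together, and Mrpl23 stands alone near 2 TPM.

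The genes with the highest levels encode small proteins of both subunits, and 7 of the 8 highest had a coding sequence shorter than the members' median of 582 bases. Mrpl42, a large-subunit protein without a bacterial counterpart, had 137.0 TPM in replicate 1 and 126 TPM in replicate 2 (chromosome 10, 95480805 to 95501940). Mrpl30, whose bacterial counterpart lies in the body of the large subunit, had 138 and 120.0 TPM. Mrpl33, also of the large subunit, had 124 and 120.4 TPM. Mrpl42 lay above Mrpl33 in both hearts, while the values of Mrpl30 overlapped with those of both. Mrpl51 followed with 121 and 114 TPM and Mrpl12 with 110.4 and 105 TPM. Mrps21, with 111 and 105 TPM, was the highest gene of the small subunit, and its values overlapped with those of Mrpl12. Below these 6 came Mrps23 at 88.6 ± 4.2 TPM and Mrpl52 at 86.8 ± 7.4 TPM (mean ± SD, n = 2), a pair that did not differ beyond their spread.

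At the other end, 6 of the 8 lowest had a coding sequence longer than that median. Mrps30, the large-subunit protein with a small-subunit symbol, had 10.9 and 10.1 TPM, and Mrpl1, a protein of the mobile stalk near the tRNA exit, had 12.4 and 10.8 TPM. Mrpl39 followed with 13.1 TPM in replicate 1 and 13.5 TPM in replicate 2. Mrps10 and Mrpl50 were at 15.0 ± 0.13 and 15.1 ± 0.16 TPM, and Mrps22 and Mrpl19 at 17.9 ± 1.6 and 18.0 ± 0.092 TPM. Within each of these pairs the values overlapped. Mrpl23 was listed lower still, with 2.26 and 1.56 TPM, and is taken up below with its processed copy.

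Level and length ran in opposite directions in this set. Across the 78 genes the Spearman rho of TPM with effective length was -0.63, against -0.39 over 76 cytosolic ribosomal protein genes, -0.26 over 36 nuclear complex I genes and -0.15 over all expressed nuclear protein-coding genes. By the second set of tables, a separate quantification of the same libraries, rho over the 78 was -0.61. With the length of the coding sequence in place of the effective length it was -0.31. TPM contains the effective length as a divisor, and expected counts, which do not, had a rho of 0.22 with it. These are descriptions across genes, and what part the division has in them was not tested.

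Grouped by role, the parts of the ribosome had similar medians. The 30 large-subunit proteins with a bacterial counterpart had a median of 35.9 TPM and the 21 large-subunit proteins of mitochondria only a median of 32.7 TPM. For the small subunit the medians were 33.3 TPM over 16 genes with a bacterial counterpart and 31.4 TPM over 10 genes of mitochondria only. By symbol, the Mrpl genes had a median of 33.6 TPM and the Mrps genes 35.6 TPM, a difference of -0.086 on the log2 scale, which became 0.016 once Mrps30 and Mrps18a were counted with the large subunit and Mrps36 was left out. No order between the subunits is drawn from these values. The 5 ribosomal proteins without an Mrp symbol had a median of 45.8 TPM. Of these, Dap3, the GTP-binding protein of the small subunit, had 49.9 and 47.7 TPM, and Ptcd3, an RNA-binding repeat protein of the small subunit, had 55.9 and 47.6 TPM. Chchd1 averaged 45.8 ± 3.0 TPM and Aurkaip1 35.0 ± 0.52 TPM, both small-subunit proteins, and Gadd45gip1 of the large subunit 10.95 ± 1.1 TPM.

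The stalk of the large subunit recruits translation factors, and its genes did not share 1 level. Mrpl12, present in several copies per ribosome and also known to bind the mitochondrial RNA polymerase, averaged 108 ± 3.9 TPM. Mrpl10, which anchors it, averaged 34.2 ± 0.76 TPM, and Mrpl11, at the stalk base, 27.1 ± 2.2 TPM. In both hearts Mrpl12 lay far above its neighbours and Mrpl11 below Mrpl10, with no overlap among the 3. By the second tables the means were 185, 42.9 and 37.5 TPM, in the same order.

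The genes at the mouth of the exit tunnel were lower than the set as a whole, with a median of 20.8 TPM over 5. Mrpl45, which ties the ribosome to the inner membrane, had 21.8 and 19.8 TPM. Mrpl22 had 21.6 and 22.8 TPM, Mrpl24 had 32.0 and 28.9 TPM, and Mrpl47 had 21.7 and 15.5 TPM. The fifth, Mrpl23, was at 1.91 TPM. By the second tables the order differed: Mrpl23 averaged 78.5 TPM, Mrpl22 52.3, Mrpl24 38.5, Mrpl45 26.3 and Mrpl47 22.8 TPM. The median of the 5 was then 38.5 TPM, against 52.3 TPM over the 78 genes.

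Genes mutated in human diseases of mitochondrial translation spanned the range of the set, with a median of 33.3 TPM over 12. Besides Mrpl12 and Mrps23 among the highest and Mrps22 among the lowest, Mrpl3, a large-subunit protein near the catalytic centre, averaged 61.1 ± 0.21 TPM. Mrpl44, a large-subunit protein related to ribonucleases, averaged 19.1 ± 1.8 TPM. The values of Mrpl3 overlapped with those of Mrpl15, another protein of the large subunit core, at 60.2 ± 2.9 TPM. Among genes of the small subunit, Mrps34 averaged 42.8 ± 3.0 TPM, Mrps14 37.3 ± 2.9, Mrps28 35.6 ± 0.67, Mrps16 30.9 ± 2.2, Mrps7 30.8 ± 0.30, Mrps25 26.7 ± 4.1 and Mrps2 21.7 ± 2.0 TPM. In this order Mrps14 and Mrps28 overlapped between the hearts, as did Mrps16 and Mrps7, and the other 4 neighbouring pairs did not.

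The 4 genes with misleading symbols lay outside the quartiles of the set, Mrps30 below at 10.5 ± 0.55 TPM and the others above. Mrps36 averaged 64.1 ± 1.0 TPM, Mrpl58 68.0 ± 3.5 TPM and Mrps18a 48.2 ± 5.3 TPM. The upper quartile was 70.6 TPM by the second tables, where Mrps18a, at 70.5 TPM, lay just within it. Mrpl36, a small protein of the large subunit, averaged 19.0 ± 2.1 TPM. The Mrps18 genes are 3 relatives whose proteins take different places in the ribosome: Mrps18a in the large subunit had 51.9 and 44.5 TPM, Mrps18c 46.8 and 34.9 TPM, and Mrps18b 28.02 and 24.5 TPM. Mrps18b was the lowest of these 3 in both hearts, while Mrps18a and Mrps18c overlapped.

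By median level, the ribosomal proteins stood above the genes that build and serve the ribosome and below those of complex I and of the cytosolic ribosome. Of the 78 genes, 75 lay above the median of all expressed nuclear protein-coding genes and 49 above the 75th percentile. The 25 genes of ribosome assembly, which encode GTPases, helicases and rRNA-modifying enzymes, had a median of 9.10 TPM, the 12 translation factors 15.7 TPM, the 19 mitochondrial aminoacyl-tRNA synthetases 13.4 TPM and the 9 genes of mitochondrial DNA transcription and copying 11.04 TPM. Among translation factors the elongation factors Tufm, with 106 and 99.97 TPM, and Gfm1, at 90.2 ± 6.9 TPM, lay within the range of the 8 highest members. The 36 nuclear complex I genes, whose proteins join subunits made on this ribosome, had a median of 241 TPM, and the 76 cytosolic ribosomal protein genes 344 TPM. The SD of log2 TPM was 0.95 in the 78 genes and 0.95 in cytosolic ribosomal protein genes. The RNA of the mitochondrial ribosome itself was measured at 38325 ± 778 TPM for mt-Rnr1 and 71140 ± 2605 TPM for mt-Rnr2, in libraries from which ribosomal RNA had been reduced, so these 2 values are not levels in the cell.

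**Figure D2:**
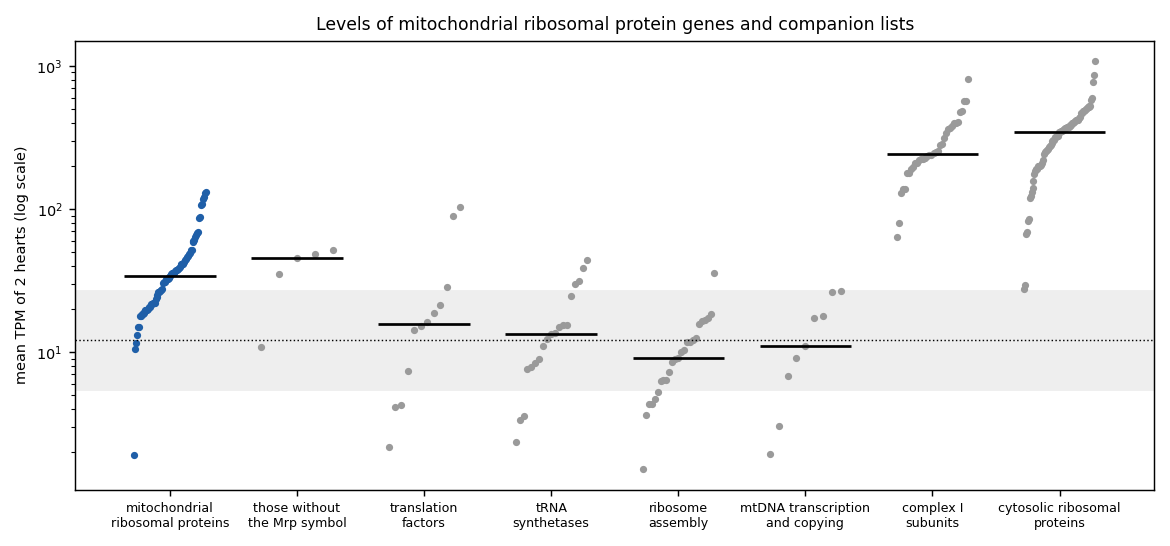
Mean TPM of 2 hearts on a log axis for each gene of the set and of 7 companion lists, 1 point per gene, with a bar at each list's median. The dotted line and the grey band give the median, 12.2 TPM, and the quartiles of all expressed nuclear protein-coding genes. The 78 genes, at a median of 33.9 TPM, sit above assembly, synthetase and translation factor genes and below the complex I and cytosolic ribosomal protein genes.

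The 2 hearts were then compared by counts, scaled with TMM, as the log2 ratio of replicate 2 over replicate 1. The median ratio over the 78 genes was 0.01, with 43 genes higher and 35 lower in replicate 2, and the median over all 16266 genes that passed the count filter was -0.0034. Past 1.25-fold there was 1 of the 78 genes, Mrpl23, against 30.3% of all filtered genes. Past 1.5-fold there were 0 of 78, against 12.3%, and past 2-fold 0 of 78, against 3.06%. Of 8193 nuclear protein-coding genes with a mean of 250 to 3500 counts, 1464 were past 1.25-fold, 322 past 1.5-fold and 49 past 2-fold. That range holds every member but Mrpl23. The SD of the log2 ratio was 0.125 over the 78 genes, against 0.400 over all filtered genes and 0.270 over those 8193. It was smaller still in 2 related lists, at 0.066 over 36 complex I genes and 0.103 over 76 cytosolic ribosomal protein genes. A small spread was therefore not particular to the set. The members' counts ranged from 62.4, in Mrpl23, to 3632, in Mrpl12. On the TPM scale 62 of the 78 genes were lower in replicate 2, with a median log2 ratio of -0.10, and the median of all filtered genes on that scale was also shifted, to -0.13.

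**Figure D3:**
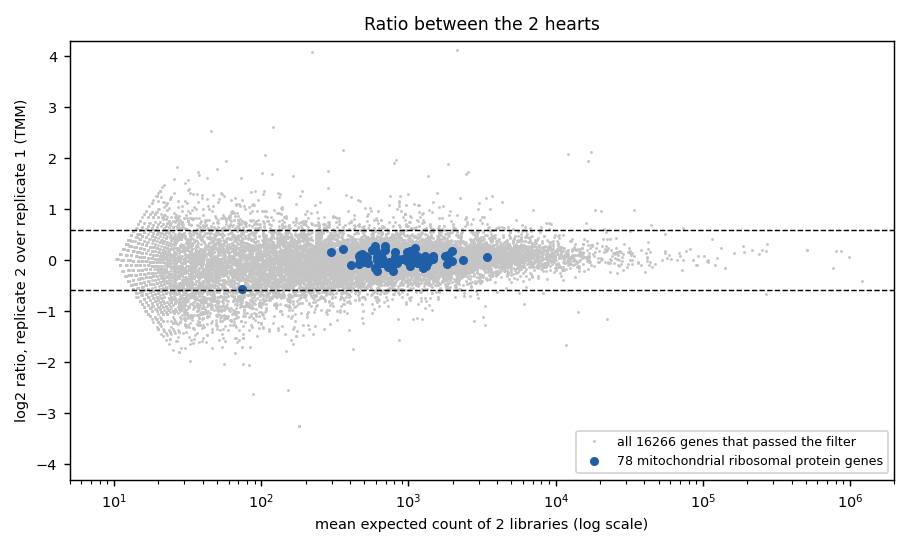
The log2 ratio of replicate 2 over replicate 1 for every gene that passed the count filter, against its mean expected count on a log axis, with the 78 genes in blue and dashed lines at 1.5-fold. The members lie within the band of 1.5-fold, from -0.56 for Mrpl23 to 0.28 for Mrpl20.

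Apart from Mrpl23, the largest ratios between the hearts stayed under 1.25-fold. Mrpl20 had 512 counts in replicate 1 and 674 in replicate 2, a log2 ratio of 0.28 with a counting interval of 0.11 to 0.45 (95%, exact binomial). Mrpl39 had 596 and 783 counts, also a ratio of 0.28. Mrps7 had 972 and 1247 counts, a ratio of 0.24. Mrpl22 and Mrpl54 followed at 0.22 and 0.20. Of these 5, Mrps7 is the gene of the small subunit. In the other direction Mrpl49 had 815 and 759 counts, a ratio of -0.22 with an interval of -0.36 to -0.07, and Mrpl21 had 631 and 588 counts, also -0.22. Mrpl4 was at -0.15, Mrpl34 at -0.14 and Mrpl47 at -0.13. In all, the counting interval left out 0 for 19 of the 78 genes, 14 higher and 5 lower in replicate 2. Such an interval covers counting error only and not the variation between animals. The same count was not made over all filtered genes, so 19 of 78 cannot be called high or low.

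Several other lists had medians further from 0 between the same hearts. The Mrpl genes had a median log2 ratio of 0.03 and the Mrps genes 0.0040. Complex I genes had a median of -0.01, translation factors -0.12 with 10 of 12 lower in replicate 2, and genes of mitochondrial DNA transcription and copying -0.26 with 8 of 9 lower. Cytosolic ribosomal protein genes had a median of 0.14 with 75 of 76 higher. Markers of some other cells also differed, but the 4 endothelial markers had a median of 0.06 with 0 of 4 past 1.25-fold. The 4 markers of dividing cells had a median of 0.52, the 5 fibroblast markers 0.50 and the 5 erythroid markers 1.72, with a summed TPM of 2142 in replicate 2 and 558 in replicate 1, while the 6 cardiomyocyte markers, all expressed, had a median of -0.04. With the other scalings tried, the signs of these medians held except for those of Mrpl, Mrps, complex I, endothelial and cardiomyocyte genes. Of 4 lung and 4 thymus markers 0 reached 1 TPM in both hearts, but counts were present. The summed TPM was 0.68 in replicate 2 and 3.41 in replicate 1 for lung, where Sftpc had 12 and 33 counts, and 0.80 and 0.50 for thymus. Of 7 fat markers, Ucp1 was listed at 8.94 TPM in replicate 2 and at 0 in replicate 1, Plin1 at 2.12 and 0 TPM, and the summed TPM was 42.6 in replicate 2 and 27.8 in replicate 1. The part of these cells in the members' ratios was not tested, and in bulk tissue fewer cells of a type cannot be told apart from less RNA per cell.

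The members were also read by transcript. The median member put 87.5% of its TPM on 1 leading transcript, against 66.3% for expressed nuclear protein-coding genes. This median was 86.0% for cytosolic ribosomal protein genes and 83.5% for complex I genes. Of the members, 75 of 78 had the same leading transcript in both hearts, against 10621 of 11837 expressed nuclear protein-coding genes. The leading transcript was the same in both quantifications for 54 of 78, against 9183 of 11837 expressed nuclear protein-coding genes. It was the same for 26 of 36 complex I genes and 32 of 76 cytosolic ribosomal protein genes. The median member had 92.2% of its TPM on transcripts annotated as protein-coding, against 89.0% for expressed nuclear protein-coding genes. Under 90% were 46.2% of members, against 51.8% of those genes. Yet for 18 of the 78 genes, or 23.1%, under 50% of the TPM lay on such transcripts, against 8.87% of expressed nuclear protein-coding genes. By the second tables there were 19 such genes, and 13 were under 50% by both. The corresponding share was 18.4% for cytosolic ribosomal protein genes and 16.7% for complex I genes.

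By the first tables the lowest shares on protein-coding transcripts were found in Mrps26, Mrpl51, Mrps16, Mrpl57 and Mrpl15. Mrps26, a small-subunit protein of mitochondria, had 3.54% of its TPM on protein-coding transcripts by the second tables and 3.45% by the first, and its leading transcript was annotated as a retained intron. Mrps16 had 1.33% by the second tables and 4.48% by the first, with a leading processed transcript. Mrpl51 had 4.11% and 3.64%, Mrpl57 3.496% and 4.49%, and Mrpl15 18.6% and 6.505%. Mrps24, at 4.82%, and other genes lay below Mrpl15 by the second tables. The 5 genes were alike in that both hearts and both quantifications gave the coding transcripts a small part. Mrps14 was not settled in this way: 97.8% of its TPM was on protein-coding transcripts by the second tables and 6.67% by the first, where Mrps14-201, annotated for nonsense-mediated decay, led.

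The annotated transcripts of these 18 genes were also compared by length and by the bases after the coding sequence. Length enters the shares themselves, because TPM is divided by transcript length. In 17 of the 18 genes the leading transcript was shorter than the protein-coding transcript with the longest coding sequence, and over the 18 the median lengths were 704 and 3396 bases. Past the last coding codon, stop included, the leading transcript had a median of 121 exonic bases and the protein-coding transcript 2655, with fewer on the leading transcript in 16 of the 18. In Mrpl13 and Mrps11 both had the same number. In the other 60 genes these medians were 233 and 298 bases. In most of those 60 the leading transcript was itself the protein-coding transcript compared, so close values were fixed in advance. The 18 were chosen for a low coding share, and in each the leading transcript was a different one. The gap between leading and coding transcript therefore cannot be compared between the 18 and the 60. The coding transcript alone had a median of 2655 bases in the 18 and 298 in the 60. In Mrps26 the leading transcript, Mrps26-201, carried all 600 coding bases and 340 bases after them, whereas the coding transcript, Mrps26-202, ran on for 3641 bases. In Mrpl57 the values were 126 and 2474 bases, and in Mrps16 103 and 2026 bases. In 11 of the 18 genes the leading transcript held at least 80% of the coding bases, and in the others less. The part of these ends in the shares was not tested. For Mrps5, Mrps35 and Mrpl19 the leading transcript held 29.6%, 35.1% and 37.7% of the coding bases, and it took 37.5%, 51.0% and 42.6% of the gene's TPM.

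**Figure D4:**
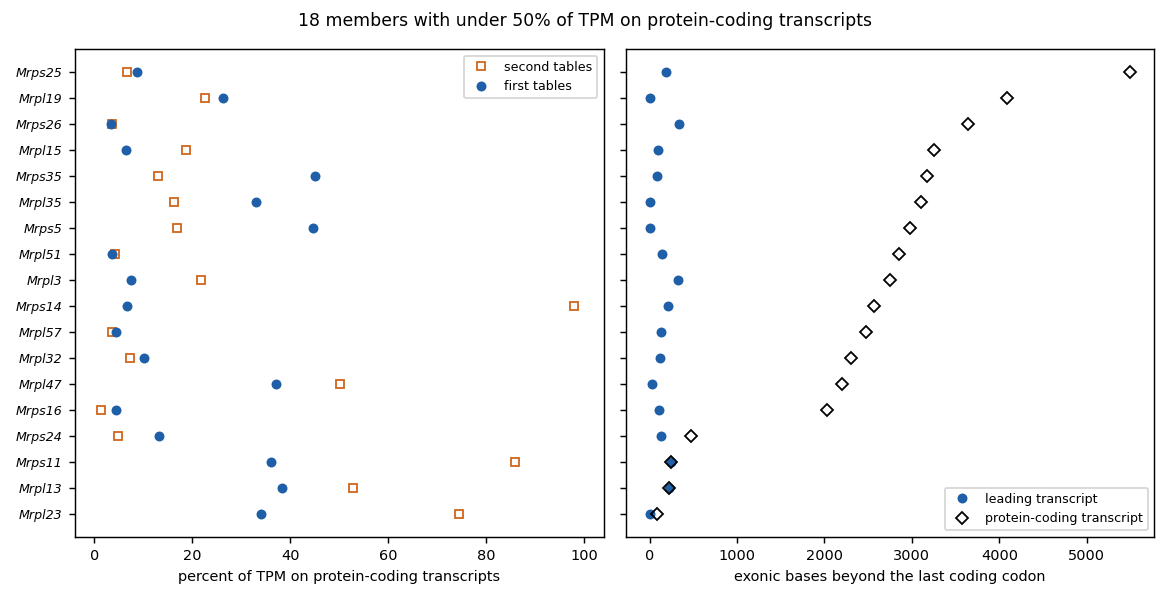
Left, the percent of each gene's TPM on transcripts annotated as protein-coding, by the second tables (open squares) and the first (filled circles), for the 18 genes under 50% by the first. Right, the exonic bases beyond the last coding codon in the leading transcript (circles) and in the protein-coding transcript with the longest coding sequence (diamonds), which ran to 5500 bases in Mrps25.

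Other genes split their TPM among several transcripts, though not always by both quantifications. By the first tables the smallest leading shares were 25.9% in Mrpl24, 29.9% in Mrpl23, 33.1% in Mrpl48, 36.9% in Mrpl55 and 37.5% in Mrps5. In the second tables Mrpl24 had 76.1% on Mrpl24-202 and Mrpl23 74.5% on Mrpl23-206, so these 2 were split by the first tables alone, and Mrps5 had 65.04% on Mrps5-206. Mrpl48 and Mrpl55 were split by both, with leading shares of 25.06% and 29.02% by the second tables. In Mrpl55 all TPM lay on coding transcripts by both. At the other end Mrpl34, Mrps28 and Mrpl50 had 1 annotated transcript each.

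The 2 quantifications ranked the members with a Spearman rho of 0.87 across genes, against 0.98 over all expressed nuclear protein-coding genes, 0.73 over complex I genes and 0.54 over cytosolic ribosomal protein genes. Of the 78, 76 were higher by the second tables. The median ratio of the second to the first was 1.40 over the 78 genes and 1.35 over all expressed nuclear protein-coding genes, so the shift was not particular to the set. At least 2-fold higher in both hearts were 6 of the 78 genes, or Mrpl23, Mrpl27, Mrpl35, Mrpl22, Mrpl3 and Mrpl36, against 3.29% of expressed nuclear protein-coding genes. At least 2-fold lower were 0 of 78, against 0.431%. Mrpl27, a large-subunit protein close to the catalytic centre, averaged 87.6 TPM by the second tables and 32.6 TPM by the first, and Mrpl35, of the large subunit, 48.8 and 19.6 TPM. Mrpl22 averaged 52.3 and 22.2 TPM, Mrpl3 134 and 61.1 TPM, and Mrpl36 40.9 and 19.0 TPM. For these 5 the 2 tables place the gene in different parts of the range, so their ranks are uncertain.

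Mrpl23, which encodes a protein at the rim of the exit tunnel, differed by far the most. By the second tables it had 72.9 and 84.1 TPM in replicates 1 and 2, against 2.26 and 1.56 TPM by the first. Its processed pseudogene Mrpl23-ps1 (chromosome 2, 74591330 to 74591909, against chromosome 7, 142532686 to 142540747, for the gene) took the reverse share, 0 TPM by the second tables and 46.7 and 51.6 TPM by the first. Summed, gene and copy had 78.5 TPM by the second tables and 51.1 TPM by the first. Over the 424 coding bases that aligned, gene and copy had 0 differences, so that reads within them match both alike. The low level of Mrpl23 in the first tables and its log2 ratio of -0.56 between the hearts, which was 0.22 by the second tables, rest on 85 and 62 counts left on the gene and are uncertain. In replicate 1 its TPM also lay below the deposited interval of 2.91 to 17.5 TPM, and the other 77 members lay within theirs in both hearts.

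Such copies were searched for among all members, as pseudogenes with at least 95% identity over at least 200 bases outside the gene. There were 26 copies of 19 members, and 59 members had none. A level of 1 TPM or more in both hearts was reached by 1 copy in the second tables and by 6 in the first, and 17 of the 26 were at 0 in both hearts by the second tables. The copies named here were chosen by that level after their values were seen. Gm5776, a copy of the small-subunit gene Mrps33, had 0 TPM by the second tables and 7.44 and 12.8 TPM by the first, where Mrps33 averaged 41.2 TPM. Mrpl48-ps had at most 0.174 TPM by the second tables and 5.58 and 6.74 TPM by the first, where Mrpl48 averaged 32.7 TPM. The stretches below show how little separates them: 90 bases of the coding sequence of each gene and the aligned bases of its copy from the GENCODE M21 transcripts, with differing bases in capitals.
Mrpl23: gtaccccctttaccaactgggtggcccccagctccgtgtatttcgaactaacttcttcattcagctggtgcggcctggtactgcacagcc
Mrpl23-ps1: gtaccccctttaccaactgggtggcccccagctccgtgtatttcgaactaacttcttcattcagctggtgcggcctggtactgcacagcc
Mrps33: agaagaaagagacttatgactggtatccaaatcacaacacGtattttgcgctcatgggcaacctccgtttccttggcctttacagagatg
Gm5776: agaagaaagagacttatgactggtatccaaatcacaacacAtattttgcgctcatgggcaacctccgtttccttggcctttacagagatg
Mrpl48: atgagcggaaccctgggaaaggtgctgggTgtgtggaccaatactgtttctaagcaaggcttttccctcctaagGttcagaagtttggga
Mrpl48-ps: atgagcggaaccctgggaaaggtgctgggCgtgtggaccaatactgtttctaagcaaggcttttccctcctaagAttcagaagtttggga
The stretch of Mrpl23 is coding bases 96 to 185, that of Mrps33 131 to 220 and that of Mrpl48 1 to 90. Over the whole alignment Mrps33 and its copy differed at 1 of 321 bases, and Mrpl48 and its copy at 12 of 636. Reads that span no difference cannot be assigned by sequence.

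**Figure D5:**
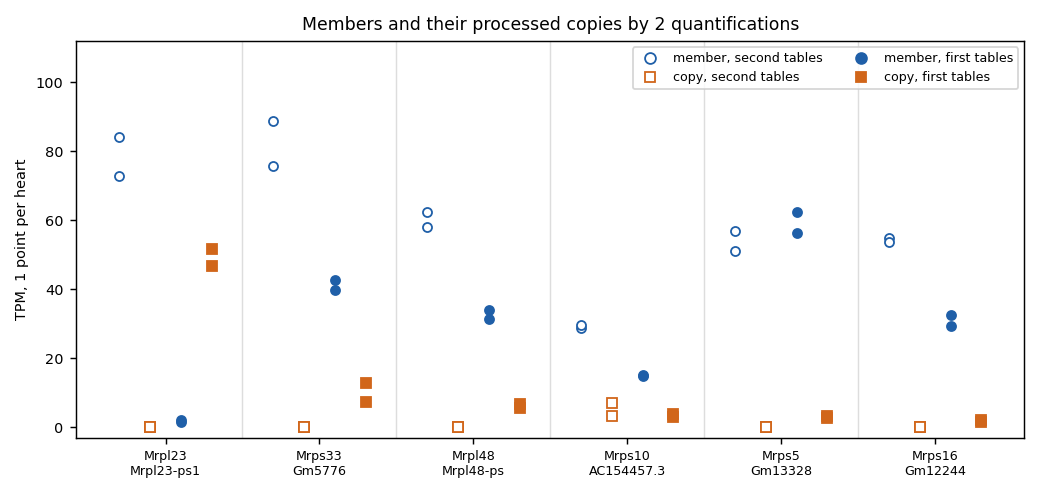
TPM of 6 members (circles) and of their processed copies (squares), 1 point per heart, by the second tables (open) and the first (filled). In the first pair the member is near 0 by the first tables and the copy near 50 TPM, and by the second tables the copy is at 0.

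The promoters were compared by short words on either strand, counted per gene. CCGGAAG was present in 26 of 69 genes, or 37.7%, against 20.8% of expressed protein-coding genes in the table and 9.93% of all genes there. ATGGCGG, the core of YY1, was present in 13 genes, or 18.8%, against 9.91% and 4.69%, and GCATGCGC, the core of NRF1, in 8 genes, or 11.6%, against 6.19% and 3.05%. At least 1 of these 3 words was present in 37 of 69 genes, and in 32.4% of expressed protein-coding genes. The words of SP factors (GGGCGG) and of the E-box (CACGTG) were not more frequent, at 49.3% against 70.7% and 7.25% against 11.9% of expressed protein-coding genes. For AAGGTCA, bound by estrogen-related receptors, the shares were 5.80% and 3.70%, and for TATAAA 7.25% and 8.42%. Cytosolic ribosomal protein genes had CCGGAAG in 41.1%, ATGGCGG in 16.1% and GCATGCGC in 5.36%, and complex I genes had them in 12.5%, 25% and 9.38%. None of the 7 words contains another, and a match is no evidence of binding. The median level was 41.0 TPM in the 26 genes with CCGGAAG and 27.1 TPM in the 43 without. For the other two words the order was the reverse: 22.2 TPM with ATGGCGG and 33.9 TPM without, and 26.2 TPM with GCATGCGC and 33.0 TPM without.

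Many members shared their start region with a neighbour on the opposite strand. A protein-coding gene started head to head within 1000 bases, without overlap, of 18 of the 78 genes, or 23.1%, against 10.6% of expressed nuclear protein-coding genes. With overlapping annotated starts counted too, a setting chosen after seeing the data, there were 33, or 42.3%, against 16.5%. These include 1 pair of members, Mrps11 and Mrpl46 on chromosome 7, which share 413 bases and whose RefSeq starts lie 42 bases apart. Mrps11 averaged 22.0 ± 0.99 TPM and Mrpl46 18.5 ± 0.40 TPM. Among the 18 without overlap the median distance between the starts was 82 bases. The member was higher than its neighbour in 16 of these 18 pairs, with median levels of 34.8 TPM for the members and 8.62 TPM for the neighbours. Of the 18 neighbours, 16 were expressed in both hearts. As 75 of the 78 members lay above the median of expressed nuclear protein-coding genes, this count cannot be read as a trait of the pairs. The same count was not made for other genes with such a neighbour. Mrpl30 averaged 129 TPM beside 3.51 TPM for Mitd1, 66 bases away, and Mrps18c 40.8 TPM beside 3.44 TPM for the helicase gene Helq, 29 bases away. The exceptions were Mrpl49, at 19.9 TPM beside 362 TPM for Fau, which encodes a cytosolic ribosomal protein, and Mrpl32, at 20.6 TPM beside 28.6 TPM for the proteasome gene Psma2. In 1 pair, Mrps12 at 19.7 TPM and the mitochondrial seryl-tRNA synthetase Sars2 at 7.90 TPM, both partners serve mitochondrial translation. The partners were named after their values were seen. A gene on the opposite strand overlapped 36 of the 78 members. The same count was not made over other genes, so 36 of 78 cannot be called high or low. The sources used here do not state whether counting of reads used strand.

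The members lay on 17 chromosomes, with 11 on chromosome 11 and 8 on chromosome 17, and 0 were found on X or Y.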

How the data were processed

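Total RNA of 2 hearts of 1 group was analysed, with 31698880 and 35939759 expected counts in all, of which 68907 and 76040 lay on the members. Per the file headers, the authors' first tables give, for genes and transcripts, expected counts and TPM under RSEM's column names, with a percent of the gene for each transcript and, for genes, an interval of TPM at a level not stated. The second deposited tables give estimated counts and TPM per transcript under kallisto's column names. Per notes deposited with the files, the build was mm10 with GENCODE M21. Aligner and tool versions: not given in the sources used here.

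Expected counts were rounded, filtered with filterByExpr, scaled with TMM in edgeR 4.0.16 (R 4.3.3, prior count 2), and turned into ratios of replicate 2 over replicate 1, with no test across samples. The 96 spike-ins and 26249 rows that name no gene, holding 2 and 4 counts (6.31e-06% and 1.11e-05%), were left out. The step was tested on simulated data. DESeq2 1.42.0 size factors, spike-in scaling, other pseudocounts and filters and the second tables were alternatives. Log TPM used a pseudocount of 0.1. Copies were found with BLAST 2.17.0, and tables and figures were made in Python 3.11.15 (pandas 2.3.3, matplotlib 3.10.9, Biopython 1.88, SciPy 1.17.1, NumPy 2.4.6). Counting intervals are exact binomial at 95% and cover counting error only.

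The set of genes, the lists and the words were chosen with earlier results of these data known, although the rule by symbol uses no measured value. Named members were the 8 highest and 8 lowest by TPM, the 5 largest ratios each way with at least 100 counts, the 6 most different between quantifications, the 5 smallest leading and coding shares, the stalk, exit tunnel and disease lists, and genes with misleading symbols.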

Additional observations from a re-analysis of the deposited data

Results flagged for a closer look

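Signal was present on 6 processed pseudogene copies of members, which the comparisons above do not count as members and which lay above the limit that a count of 0 allows (3 counts). By the first tables the mean TPM of 2 hearts was 49.2 on Mrpl23-ps1, 10.1 on Gm5776 (a copy of Mrps33), 6.16 on Mrpl48-ps, 3.38 on AC154457.3 (a copy of Mrps10), 3.00 on Gm13328 (a copy of Mrps5) and 1.90 on Gm12244 (a copy of Mrps16). By the second tables AC154457.3 averaged 5.22 TPM and Mrpl48-ps 0.087 TPM, and the other 4 were at 0 in both hearts.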

How the results depend on the processing

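All 78 genes were expressed under every alternative tried but a limit of 10 TPM, which left 77, and 0 genes passed 1.5-fold between the hearts under each of 6 alternatives. The median log2 ratio ran from -0.10 to 0.05 over those 6, less than the SD over members. By the second tables the share of TPM was 0.487%, the median level 52.3 TPM and the median leading share 80.7%. Rescaled to nuclear protein-coding genes, share and median level were 0.726% and 76.8 TPM. With the copies added, an alternative chosen after seeing the data, the median level was 35.5 TPM. The difference of subunits was 0.016 with 3 genes reassigned, above. Without 1 replicate each, the median level was 33.6 to 34.8 TPM, the subunit difference -0.060 to -0.043, the leading share 87.8% to 88.6% and the coding share 92.1% to 93.5%. The mean TPM of 49 of 51 named members moved by over 1 SD by the second tables, and the log2 ratio of 4 by over the SD of members. The cause was not tested. No paired analysis was possible because there was 1 group. Head-to-head neighbours numbered 33 with overlapping starts counted, against 18. The fewest expected counts in a heart were 62.4, in Mrpl23, whose copy had 546 and 716, and then 268, in Mrps12.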

Other observations

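The spread of levels over the 78 genes, as the SD of log2 TPM, was 0.89 by the second tables, against 0.66 for cytosolic ribosomal protein genes and 0.66 for complex I genes, whereas the first tables gave 0.95, 0.95 and 0.76.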
